A study of Homo sapiens with 6 samples.

Results

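Charlie, Zaphod, Cheshire and Arthur are extinct families of DNA transposons of the hAT superfamily, named after hobo, Ac and Tam3. The entries described here are all those in a deposited table of repeat counts whose name begins with one of these names. They are 58 of 15641 entries, of which 46 are Charlie, 6 Zaphod, 5 Arthur and 1 Cheshire. The table measures RNA from the chromatin fraction of H9, an established line of human embryonic stem cells. There are 3 libraries labelled naive, a state held in RSeT medium, and 3 labelled primed. All 6 libraries carry the same text on growth in RSeT medium, so the primed state rests on the treatment label alone, and because the table lists repeats and no genes, markers of either state could not be checked. H9 is 1 line, and no label ties its libraries to different cultures, so p-values reflect the spread among these 6 samples and no more, and that spread may be technical.

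A complete hAT transposon encodes a transposase that cuts the element out and pastes it elsewhere, acting on short inverted repeats at both ends. Many shorter elements kept the ends and lost the coding part, and were moved by the enzyme of a complete relative. Repeat classification places Charlie and Cheshire in the hAT-Charlie branch and Zaphod and Arthur in the hAT-Tip100 branch. Human copies are old remnants scattered through introns and the space between genes. RNA that carries them is therefore often part of a longer transcript, and a count of such RNA is no sign of a moving element. A letter after a family number generally marks a relative of the numbered element, often a shorter one without coding capacity.

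Each value sums reads over all genomic copies of an entry, so it has no single position, and entries were not set against each other by level because their lengths were not used. The 3 naive libraries held 9748202 to 17791046 counts, while primed replicates 1 and 3 held 7192242 and 8106871 and primed replicate 2 only 118793. In that library 3 counts stand for 16.8 CPM (counts scaled to a common library size with TMM factors, which offset differences in composition). The alpha satellite entry took 34.2% ± 8.81 of counts in naive samples and 0.384% ± 0.213 in primed samples (SD, n = 3 each). Ribosomal RNA took 0.169% to 6.08% in naive samples and 4.04% to 17.7% in primed samples. A share of all counts moves with both of these.

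The hAT entries as a whole took about the same part of the remaining repeat RNA in both states. With alpha satellite and ribosomal RNA set aside, their share was 1.496%, 1.33% and 1.39% in naive replicates 1 to 3, and 1.31%, 1.46% and 1.40% in primed replicates 1 to 3. The groups overlapped, with means of 1.41% ± 0.0842 in naive and 1.39% ± 0.0749 in primed samples (SD, n = 3 each). For the shallow primed library 2 the 95% Wilson interval is 1.39% to 1.53%, which covers counting error only and rests on 1654 counts. Over all counts the share was 1.03%, 0.685% and 0.912% in naive samples and 1.08%, 1.39% and 1.29% in primed samples. On that basis every naive library was below every primed library. With TMM scaling the summed hAT level was 11385, 10916 and 10685 CPM in naive replicates 1 to 3. In primed replicates 1 to 3 it was 9793, 9252 and 10391 CPM, so every naive library was above every primed library. The direction for the hAT entries as a whole thus depended on what their counts were set against. In bulk RNA, a change in the number of cells that carry an RNA and a change in its amount per cell cannot be told apart.

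**Figure D1:**
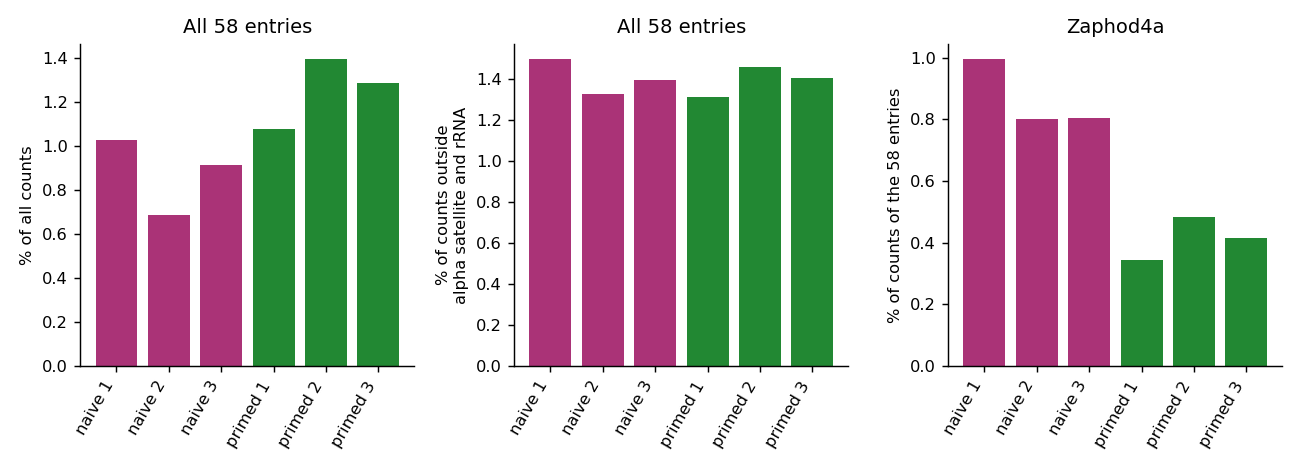
Share of counts in each library. The left bars give the 58 hAT entries as a percentage of all counts, the middle bars as a percentage of counts outside alpha satellite and ribosomal RNA, and the right bars Zaphod4a as a percentage of the counts of the 58 entries, with naive libraries in purple and primed libraries in green. The middle bars overlap between the states (1.33% to 1.496% in naive, 1.31% to 1.46% in primed), while Zaphod4a is higher in each naive library (0.800% to 0.994%) than in each primed library (0.345% to 0.484%).

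All 58 entries passed the filter on low counts. With TMM scaling, 2 rose in naive cells and 0 fell by edgeR's quasi-likelihood test at an adjusted p of 0.05. The 2 are Zaphod4a and Arthur1B. The background is 10.4% called higher and 1.19% called lower among 1265 named (not simple) repeats tested, and 4.94% and 7.77% among all 3219 entries tested. Of the hAT entries 3.45% were called higher. At an unadjusted p of 0.05, 10 were higher and 1 was lower, against a background of 28.1% and 3.32% of named repeats. DESeq2 called 1 higher, Zaphod4a, and 0 lower, against 7.67% and 0.675% of the 1186 named repeats it tested. With library size as the only scaling 1 was higher and 9 were lower, against 1.03% and 17% of named repeats. The count of higher entries also moved with single libraries, and so did the share of named repeats called higher. It was 3, 1 and 1 when naive replicate 1, 2 or 3 was left out, against 16%, 3.45% and 6.44% of named repeats. It was 1, 2 and 5 when primed replicate 1, 2 or 3 was left out, against 0.549%, 12.1% and 7.84% of named repeats. The naive libraries all lay above the primed ones for 20 of the 58 entries (34.5%) and below them for 0, against 36% and 3.24% of named repeats.

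The sizes were small. The median log2 change over the 58 was 0.14, with quartiles of 0.04 and 0.26, against 0.21 for all named repeats and -0.0046 for all entries tested. With TMM scaling 47 entries stood above 0 and 11 below. With library size alone 57 stood below 0, since that scaling moved the median of all entries tested to -0.61 and that of the hAT entries to -0.49. Both positions are relative to the other repeats counted, and relative to them the hAT entries lay below the median of named repeats with either scaling. Of the 56 entries not called, 54 had a 95% interval within a 2-fold change either way and 36 within a 1.5-fold change. The 2 that reached past 2-fold were Charlie6 on the low side and Zaphod5b on the high side.

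**Figure D2:**
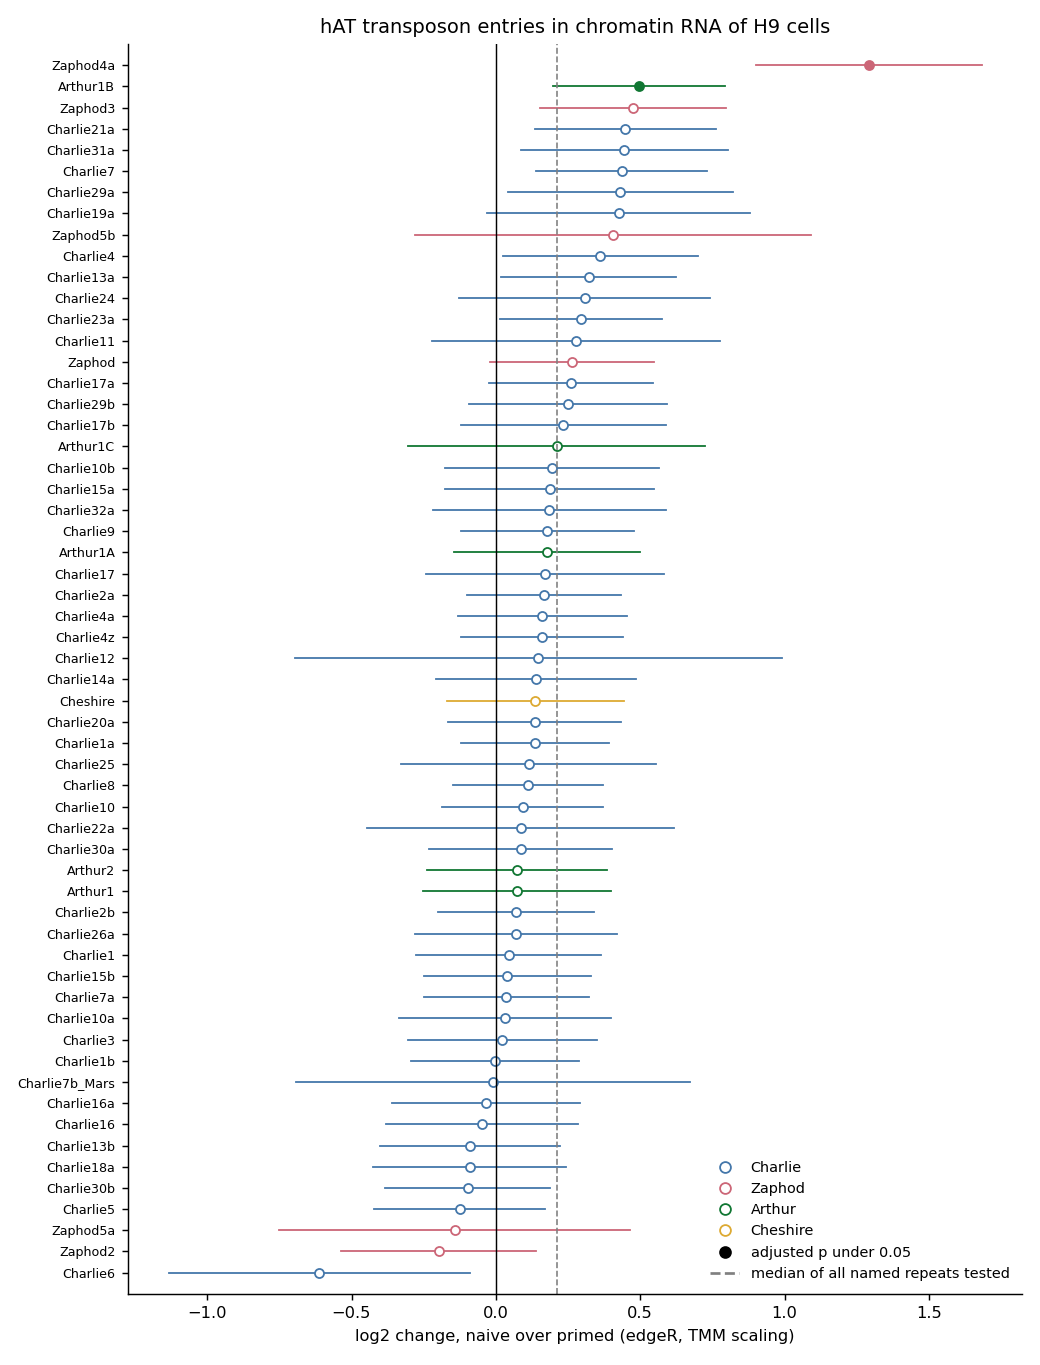
Log2 change, naive over primed, of the 58 hAT entries with its 95% interval (edgeR, TMM scaling), coloured by family. Filled points passed an adjusted p of 0.05 and the dashed line is the median of all named repeats tested (0.21). Zaphod4a at 1.29 stands apart at the top, Charlie6 at -0.61 is at the bottom, and 56 of 58 points lie within 0.5 of 0.

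Zaphod4a showed the largest change. This entry belongs to the Zaphod family of the hAT-Tip100 branch. A letter generally marks a relative of a numbered element, but no entry with the same number and no letter was listed. Zaphod4a had 113, 87.3 and 86.0 CPM in naive replicates 1 to 3 (995, 974 and 1225 counts). In primed replicates 1 to 3 it had 33.8, 44.8 and 42.9 CPM (267, 8 and 431 counts). Each naive library was above each primed one, with only 8 counts behind the value of primed replicate 2. The mean was 95.5 ± 15.3 CPM in naive and 40.5 ± 5.88 CPM in primed samples (SD, n = 3 each), a log2 change of 1.29 ± 0.18 (SE) or 2.45-fold, with a 95% interval of 1.87 to 3.21 (edgeR adjusted p = 0.00443). Without the shallow primed library 2 the log2 change was 1.33 (edgeR adjusted p = 0.0140). It passed in each of the 6 fits without 1 library, with log2 changes between 1.13 and 1.42 and edgeR adjusted p up to 0.0341.

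Zaphod4a was called with each scaling tried. With no factor beyond library size the log2 change was 0.69 (edgeR adjusted p = 0.0493), where the median of all entries was -0.61. As a share of the counts of the 58 hAT entries, which needs no scaling factor, Zaphod4a held 0.994%, 0.800% and 0.805% in naive replicates 1 to 3 and 0.345%, 0.484% and 0.413% in primed replicates 1 to 3. The groups did not overlap, and the exact two-sided permutation p of 0.1 is the smallest that 3 against 3 can give. Zaphod4a was picked by these same counts, so this p adds no separate support. The share in primed library 2 rests on 8 counts, with a 95% Wilson interval of 0.245% to 0.952%.

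The 5 other Zaphod entries did not pass the test, and their log2 changes ran from -0.20 to 0.47. Zaphod3 had 67.7, 79.6 and 74.6 CPM in naive samples and 56.7, 50.3 and 50.6 CPM in primed samples. The groups did not overlap, with only 9 counts behind the value of primed replicate 2. The log2 change of Zaphod3 was 0.47 ± 0.15 (SE, edgeR adjusted p = 0.0549). It passed when naive replicate 1 was left out (0.56, edgeR adjusted p = 0.0373). Zaphod itself, the entry without a number, had 115, 127 and 119 CPM in naive and 95.1, 106 and 103 CPM in primed samples, with a log2 change of 0.26 (edgeR adjusted p = 0.188). For Zaphod2 the order was the other way, with 51.8, 57.3 and 52.1 CPM in naive and 62.1, 78.3 and 56.7 CPM in primed samples, and the groups overlapped (log2 -0.20; edgeR adjusted p = 0.411). Zaphod5a and Zaphod5b were rare, with 311 and 199 counts summed over naive samples and 184 and 78 over primed samples. Their log2 changes were -0.14 and 0.41, with wide standard errors of 0.28 and 0.31.

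**Figure D3:**
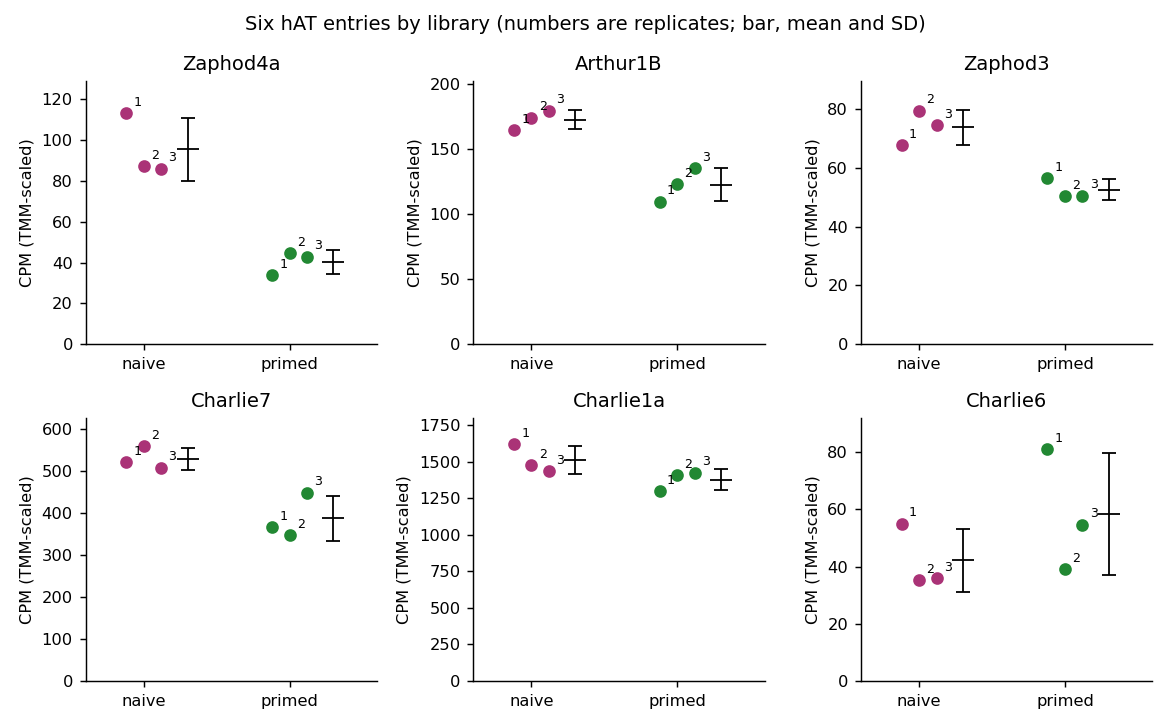
TMM-scaled CPM of 6 hAT entries in each library, with naive left and primed right. Points are libraries numbered by replicate, and the bar beside them gives the mean and SD (n = 3). The groups do not overlap for Zaphod4a (86.0 to 113 CPM in naive, 33.8 to 44.8 CPM in primed), Arthur1B, Zaphod3, Charlie7 and, narrowly, Charlie1a, while for Charlie6 they do. The value of primed replicate 2 rests on 8 counts for Zaphod4a, 9 for Zaphod3 and 7 for Charlie6.

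Arthur1B, of the other family in the hAT-Tip100 branch, was the second entry called. It had 164, 174 and 179 CPM in naive replicates 1 to 3 and 110, 123 and 135 CPM in primed replicates 1 to 3, without overlap. Only 22 counts stand behind the value of primed replicate 2. The log2 change was 0.50 ± 0.14 (SE), or 1.41-fold with a 95% interval of 1.15 to 1.73 (edgeR adjusted p = 0.0382), and with library size alone it turned to -0.15 (adjusted p = 0.667). This call was lost without naive library 2 (0.52, edgeR adjusted p = 0.0964), naive library 3 (0.50, adjusted p = 0.0759) or primed library 1 (0.38, adjusted p = 0.298), and by DESeq2 (0.48, adjusted p = 0.0743). With simple repeats left out it was lost at 0.28 (edgeR adjusted p = 0.118). Upper-quartile factors (edgeR adjusted p = 0.0935), no filter on low counts (0.0998) and scaling by summed hAT counts (0.103) lost it too. So did leaving out alpha satellite and ribosomal RNA (0.0502) and thinning to the shallowest library (0.893). Arthur1B kept its call in 6 of 17 alternatives. As a share of hAT counts Arthur1B held 1.57% ± 0.120 in naive and 1.25% ± 0.114 in primed samples (SD, n = 3 each). The exact permutation p was 0.1, from the same counts by which Arthur1B was picked.

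Within libraries, Arthur1B was also set against its own relatives. The log2 ratio of Arthur1B to Arthur1 counts, after adding 0.5 to each, was 0.32, 0.12 and 0.29 in naive replicates 1 to 3 and -0.29, -0.49 and 0.06 in primed replicates 1 to 3. The groups did not overlap, with a mean difference of 0.48 (exact permutation p = 0.1). The ratio of Arthur1B to Arthur1A was higher in each naive library as well, by 0.35 on average (exact permutation p = 0.1). The ratio of Arthur1C to Arthur1B was -2.60, -2.57 and -2.43 in naive samples and -2.28, -1.24 and -2.44 in primed samples, which overlapped (exact permutation p = 0.2). In primed library 2 these ratios rest on only 31 counts of Arthur1, 12 of Arthur1A, 22 of Arthur1B and 9 of Arthur1C. Across 28 such pairs in 13 families, 9 had an exact permutation p of 0.1, the smallest that 3 against 3 can give. The smallest Benjamini-Hochberg adjusted p of these exact tests was 0.311. With 3 against 3 no pair could have passed 0.05, so these tests decide nothing for any pair. Arthur1B was picked by these same counts, and the pairs described were chosen after their values were seen. Arthur1 itself averaged 147 ± 14.5 CPM in naive samples and 146 ± 24.1 CPM in primed samples (SD, n = 3 each; log2 0.07, edgeR adjusted p = 0.762). Arthur1A gave 0.18 (edgeR adjusted p = 0.445), Arthur1C 0.21 (0.570) and Arthur2 0.07 (0.752).

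Among Charlie entries 0 of 46 passed the test in either direction, against 10.4% of named repeats called higher and 1.19% lower. At an unadjusted p of 0.05, 7 were higher and 1 was lower, against 28.1% and 3.32% of named repeats. DESeq2 called 0 in either direction, against 7.67% and 0.675% of named repeats. The median log2 change of the Charlie entries was 0.14, and 37 of 46 stood above 0 with TMM scaling. The 15 with a number only had a median of 0.11 and the 31 with a letter a median of 0.14. Charlie4z, Charlie4a, Charlie1b and Charlie18a, 4 of the 8 entries with the highest CPM, gave 0.16, 0.16, -0.0040 and -0.09, with edgeR adjusted p of 0.427, 0.442, 0.990 and 0.713. With library size alone Charlie4z and Charlie4a turned below 0 (-0.50 and -0.48), while Charlie1b and Charlie18a passed as lower (-0.69 and -0.71; edgeR adjusted p = 0.0351 and 0.0273).

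Charlie1a, a lettered relative of Charlie1, collected the most counts of the 58. It had 1621, 1478 and 1435 CPM in naive replicates 1 to 3 and 1298, 1410 and 1426 CPM in primed replicates 1 to 3. The lowest naive library was only just above the highest primed one. The log2 change was 0.13 ± 0.12 (SE; edgeR adjusted p = 0.469), with a 95% interval of 0.919 to 1.31-fold. Charlie1a held 13.7% ± 0.441 of hAT counts in naive and 14.1% ± 1.04 in primed samples (SD, n = 3 each), which overlapped. Charlie8, the family from which the transposase-like end of the human gene GTF2IRD2 derives, had 548, 603 and 602 CPM in naive samples and 557, 531 and 533 CPM in primed samples. These overlapped too (log2 0.11 ± 0.12, SE; edgeR adjusted p = 0.549). With library size alone Charlie1a and Charlie8 stood at -0.55 and -0.57, neither past the threshold.

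**Figure D4:**
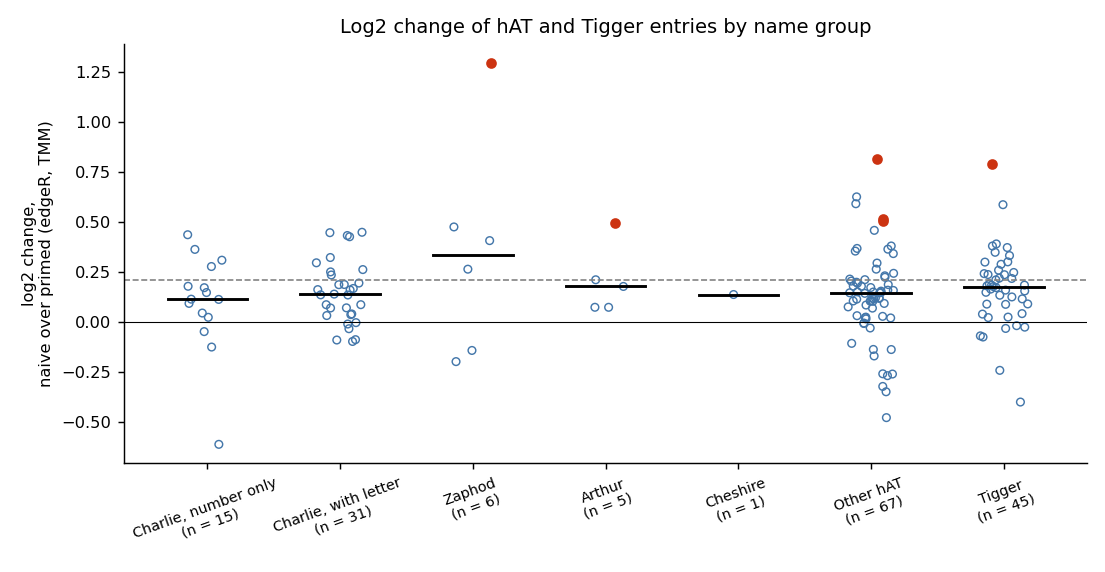
Log2 change, naive over primed (edgeR, TMM scaling), of each entry by name group, with the group median as a bar, 0 as a solid line and the median of all named repeats tested as a dashed line. Filled red points passed an adjusted p of 0.05. Charlie entries with and without a letter have medians of 0.14 and 0.11, the 67 other hAT entries 0.14 and the 45 Tigger entries 0.18.

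A few Charlie entries lay near the threshold on the higher side. Charlie7 had 522, 559 and 508 CPM in naive replicates 1 to 3 and 367, 347 and 449 CPM in primed replicates 1 to 3, without overlap. Its log2 change was 0.44 ± 0.14 (SE), or 1.35-fold, with an edgeR adjusted p of 0.0560; when primed library 3 was left out it passed (0.54, edgeR adjusted p = 0.0387). Its relatives gave 0.04 (Charlie7a) and -0.01 (Charlie7b_Mars). Within libraries the log2 ratio of Charlie7a to Charlie7 counts was -1.94, -2.07 and -1.96 in naive and -1.62, -1.24 and -1.75 in primed samples, lower in every naive library (exact permutation p = 0.1). That p is the smallest that 3 against 3 can give. The ratio uses the same Charlie7 counts as the change above, so it adds no separate support. Charlie21a (0.45, edgeR adjusted p = 0.0590), Charlie31a (0.45, 0.0938), Charlie29a (0.43, 0.123) and Charlie19a (0.42, 0.185) were of similar size. Single libraries moved some of these by over 1.5 times, with Charlie19a at 0.24 without primed library 2, Charlie29a at 0.66 without primed library 3, and Charlie31a at 0.27 without primed library 1 and 0.69 without primed library 3. The fit without primed library 3 called Charlie29a and Charlie31a (edgeR adjusted p = 0.0446 and 0.0324). In all 4 the naive libraries lay above the primed ones. Primed library 2 held 9 counts of Charlie21a, 11 of Charlie31a, 14 of Charlie29a and 29 of Charlie19a. With library size alone the direction of all 4, and of Charlie7 and Zaphod3, turned.

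Charlie6 was the one entry with a negative change at an unadjusted p of 0.05. It had 55.1, 35.4 and 36.1 CPM in naive replicates 1 to 3 and 81.2, 39.2 and 54.7 CPM in primed replicates 1 to 3. Naive library 1 and primed library 1 were each the highest of their group, and the groups overlapped. The 39.2 CPM of primed library 2 rests on 7 counts. The log2 change was -0.61 ± 0.24 (SE) with an edgeR adjusted p of 0.108. It passed as lower without naive library 1 (-0.82, edgeR adjusted p = 0.0189), with no filter on low counts (-0.61, adjusted p = 0.0489) and with library size alone (-1.15, adjusted p = 0.000492). Without primed library 1 it stood at -0.31 (edgeR adjusted p = 0.624).

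Cheshire, a hAT-Charlie element with a single entry, had 302, 294 and 247 CPM in naive samples and 232, 285 and 260 CPM in primed samples. The groups overlapped (log2 0.14 ± 0.14, SE; edgeR adjusted p = 0.534). Charlie12 was the rarest entry, with 119 counts summed over naive samples and 58 over primed samples. It had 0 counts in primed library 2, which allows up to 16.8 CPM.

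The rest of the hAT superfamily had the same median. Among 67 further hAT entries, mostly short MER-named elements thought to have been moved by such transposases, 3 rose and 0 fell by edgeR, which is 4.48% higher, against 10.4% of named repeats higher and 1.19% lower. At an unadjusted p of 0.05, 7 were higher and 2 lower (28.1% and 3.32% of named repeats). DESeq2 called 1 higher and 0 lower (7.67% and 0.675% of named repeats). The median log2 change of the 67 entries was 0.14. The 3 were MER99 (0.81 ± 0.18, SE; edgeR adjusted p = 0.0209), MER96 (0.51 ± 0.13; 0.0302) and MER63D (0.51 ± 0.14; 0.0321), and with library size alone MER96 and MER63D turned below 0. MER99 had 45.3, 45.3 and 53.8 CPM in naive samples and 27.8, 16.8 and 28.7 CPM in primed samples. The 16.8 CPM of primed library 2 rests on 3 counts, the level that a count of 0 there allows. Without that library MER99 still passed (0.78, edgeR adjusted p = 0.0208). Without primed library 1 none of these 3 entries passed (edgeR adjusted p between 0.141 and 0.194), and without naive library 3 none did either (0.0519 to 0.0746). MER96 and MER63D were also lost without naive library 2 or primed library 3. With simple repeats left out or library size alone, 0 of the 3 passed, and MER99 stood at 0.59 (edgeR adjusted p = 0.0611) and 0.24 (0.534).

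The Tigger entries, DNA transposons of the mariner superfamily with another transposase, had a median of 0.18. Of 45, 1 rose (2.22%, against 10.4% of named repeats) and 0 fell by edgeR (against 1.19%). At an unadjusted p of 0.05, 5 were higher and 0 lower (28.1% and 3.32% of named repeats). DESeq2 called 1 higher and 0 lower (7.67% and 0.675% of named repeats). The entry was Tigger6, at 48.2, 49.4 and 47.3 CPM in naive and 23.4, 39.2 and 30.6 CPM in primed samples (log2 0.79 ± 0.18 SE, edgeR adjusted p = 0.0238). Its 39.2 CPM in primed library 2 rests on 7 counts, and without that library it still passed (0.85, edgeR adjusted p = 0.0203). It was lost without naive library 2 (adjusted p = 0.0633) or primed library 1 (0.199), with library size alone (0.16, adjusted p = 0.700) and with simple repeats left out (0.60, adjusted p = 0.0578). Zaphod4a thus had a larger log2 change than any entry of the other hAT and Tigger lists; whether it differs from them was not tested.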

How the data were processed

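The deposited file gives raw read counts for every repeat name in each of the 6 libraries, and per the file's whole numbers and unequal totals the authors applied no scaling. The submitters' processing notes name Trimmomatic 0.39, STAR 2.7.8a, featureCounts and Subread 2.14.2. Genome build, repeat annotation, strand setting and the handling of multi-mapped reads are not stated in the sources at hand, so reads can move between similar families. A copy inside a gene cannot be told from its host transcript.

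The members, the lists and the alternatives were chosen with earlier results of these data known. Counts of all entries were fitted in R 4.3.3 with edgeR 4.0.16: filterByExpr, TMM factors, a quasi-likelihood test of naive against primed, and Benjamini-Hochberg adjustment over 3219 entries at 0.05. The standard error is the log2 change divided by the t value that gives its p. Replicates of a group differed beyond sampling noise. Named entries are those called, the 8 with the highest mean CPM, the 3 largest and 3 smallest changes, relatives of called entries, and up to 3 called per further list and direction. Other entries, such as Zaphod, Arthur2, Cheshire, Charlie12, Charlie7a and Charlie21a, were named after their values were seen. The alternatives included DESeq2 1.42.0. The procedure was tested on simulated counts. Plots were made in Python 3.11.15 with matplotlib 3.10.9.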

Additional observations from a re-analysis of the deposited data

How the results depend on the processing

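Depth limits the comparison most in primed library 2 (118793 counts), where 22 of the 58 entries had too few counts to be tested once all libraries were thinned to that total. Zaphod4a was among them, and it kept its call in the 16 alternatives that gave it a value. Scaling by summed hAT counts was chosen after seeing the data. The 2 entries called higher became 1 with upper-quartile factors, library size alone, DESeq2, no filter, simple repeats left out, alpha satellite and ribosomal RNA left out, or scaling by summed hAT counts, 0 after thinning, and 1 to 5 without 1 library (1 when naive replicate 2 or 3 or primed replicate 1 was left out, and 5 when primed replicate 3 was). The share of named repeats called higher moved too, from 10.4% to 6.25% with upper-quartile factors, 1.03% with library size alone and 7.67% with DESeq2. It was 10.7% with no filter, 2.45% with simple repeats left out and 8.67% with alpha satellite and ribosomal RNA left out. Scaling by summed hAT counts gave 4.19% and thinning 0.314%. The 0 called lower became 9 with library size alone (17% of named repeats) and 1 with no filter (Charlie6, against 2.78%). Without 1 library it was 0 to 1, the 1 being without naive replicate 1, against 1.81%. The 3 other hAT entries called higher became 0 with library size alone, simple repeats left out or thinning, 1 with upper-quartile factors, DESeq2, no filter or scaling by summed hAT counts, and 0 to 4 without 1 library. The median of 0.14 became 0.0480 with upper-quartile factors, -0.49 with library size alone, -0.0746 with simple repeats left out, -0.0508 after thinning and -0.00018 with scaling by summed hAT counts, and 0.10 to 0.19 without 1 library. The difference in the hAT share (0.0141 points) became -0.378 points over all counts and -0.0307 to 0.0529 points without 1 library.

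With the replicate number as a block, 8 hAT entries were called higher (Charlie7, Charlie19a, Charlie21a, Charlie29a, Charlie31a and Zaphod3 in addition), 1 lower (Charlie6) and 5 other hAT entries higher. The same fit called 18.3% of named repeats higher and 3.24% lower. The 5 Charlie entries gave 0.44 to 0.50 (edgeR adjusted p between 0.0107 and 0.0241), Zaphod3 0.44 (0.0431) and Charlie6 -0.53 (0.0186). Same-numbered libraries correlated at 0.146, 0.0867 and 0.0659 in their deviations from the group means. Each library correlated best with its own number, a hint from the data, but the correlations are not all over 0.1 and the labels give no shared origin.

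Small changes turned sign. With library size alone this held for Arthur1B (-0.15), Charlie1a (-0.55), Charlie4z (-0.50), Charlie8 (-0.57), Charlie7 (-0.23), Charlie4a (-0.48), Charlie19a (-0.18), Charlie21a (-0.15), Charlie29a (-0.17), Charlie31a (-0.17), Zaphod3 (-0.14), Arthur1 (-0.62), Arthur1A (-0.46), Arthur1C (-0.44), MER63D (-0.0844) and MER96 (-0.11). With simple repeats left out it held for Charlie1a (-0.0941), Charlie4z (-0.0736), Charlie8 (-0.12), Charlie4a (-0.0749), Arthur1 (-0.13) and Arthur1A (-0.0311). Thinning gave Charlie8 -0.17, Charlie4a -0.21, Arthur1 -0.60 and Charlie31a -0.98. Upper-quartile factors gave Charlie8 -0.0095 and Arthur1 -0.0329, and scaling by summed hAT counts gave Charlie1a -0.0311, Charlie8 -0.0463 and Arthur1 -0.0764. Leaving out 1 library turned Charlie1b (without primed replicate 2 or naive replicate 2 or 3), Zaphod5a (without naive replicate 3), Charlie18a (without primed replicate 1) and Arthur1 (without primed replicate 3), with ranges of -0.11 to 0.0851, -0.29 to 0.0073, -0.19 to 0.0132 and -0.0217 to 0.17. The cause was not tested.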
